A study of Mus musculus with 2 samples.

Results

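The mouse Mir378 genes and the annotated miRNA gene on the strand opposite Mir378a were examined in microRNA sequencing of the gastrocnemius, a calf muscle. They are Mir378a, Mir378b, Mir378c, Mir378d and Gm25301, 5 of 2202 annotated miRNA genes. They were chosen by gene name and by position, not by their values. Both animals (n = 2) were females of the hybrid B6CASTF1/J, aged 10 days, and the labels give total RNA with a size range under 30. Both libraries belong to 1 group, numbered biological replicates 1 and 2 in the labels, so no condition is compared. Tissue pieces hold several cell types, and fewer cells of a type and less miRNA per cell cannot be told apart.

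MicroRNAs are short RNAs cut from hairpin precursors. They repress messenger RNAs that match the seed, bases 2 to 8 of the mature strand. Mir378a is cut from an intron of Ppargc1b, which encodes PGC-1β, a coactivator of mitochondrial and oxidative genes. In mice, miR-378 and its partner strand are known as regulators of energy metabolism that act on Crat, an enzyme of acyl-carnitine metabolism, and Med13, a Mediator subunit. In mouse myoblasts miR-378 rises during differentiation and acts on MyoR, an inhibitor of myogenic transcription.

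The mature sequences of the low members are shown because their seeds and last bases tell them apart from one another. They are RefSeq sequences (build GRCm38.p6), written from the 5′ end, with the seed in capitals.
mmu-miR-378b: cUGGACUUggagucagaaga
mmu-miR-378c: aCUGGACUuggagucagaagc
mmu-miR-378d: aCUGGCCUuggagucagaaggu

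The sequences had 3 different seeds, UGGACUU in miR-378b, CUGGACU in miR-378c and CUGGCCU in miR-378d. Counted from the 5′ end of miR-378c, miR-378d differed by A6C, inside the seed, and by C21G at the end. The sequence of miR-378b starts 1 base later, which shifts its seed, and over the bases both hold it differed from miR-378c by C21A alone. These 19 shared bases are the longest stretch common to miR-378b and miR-378c, and miR-378d shared 14 bases in a row with either. The mature strand lies near the 5′ end of the hairpin in Mir378c (bases 4 to 24 of 99) and Mir378d (bases 16 to 37 of 110) and near the 3′ end in Mir378b (bases 67 to 86 of 92).

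The genes lie on 4 chromosomes, and 1 of them, Mir378a, is in an intron of a gene on its own strand (build mm10, GENCODE M21). Mir378a (ENSMUSG00000105200.1) occupies chromosome 18 from 61397835 to 61397900 on the minus strand. All 3 annotated Ppargc1b transcripts, 2 of them protein-coding, hold it in intron 1. It begins 2531 bases after the annotated start of Ppargc1b, 2.47% of the way along the 102296 bases of the gene, and 2389 bases after the first exon ends. Gm25301 (ENSMUSG00000093026.1, chromosome 18, 61397813 to 61397925, plus strand) covers all 66 bases of Mir378a on the other strand and extends beyond it by 47 bases in all. Mir378b (ENSMUSG00000092985.1, chromosome 11, 88352773 to 88352864, plus strand) lies within an intron of Msi2 and Mir378c (ENSMUSG00000099036.1, chromosome 14, 46954830 to 46954928, minus strand) within an intron of Samd4, both on the strand opposite that gene. Mir378d (ENSMUSG00000098756.1, chromosome 10, 126710282 to 126710391, minus strand) overlapped no other annotated gene. The transcript of Ppargc1b itself was not measured, since the libraries hold short RNA.

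**Figure D1:**
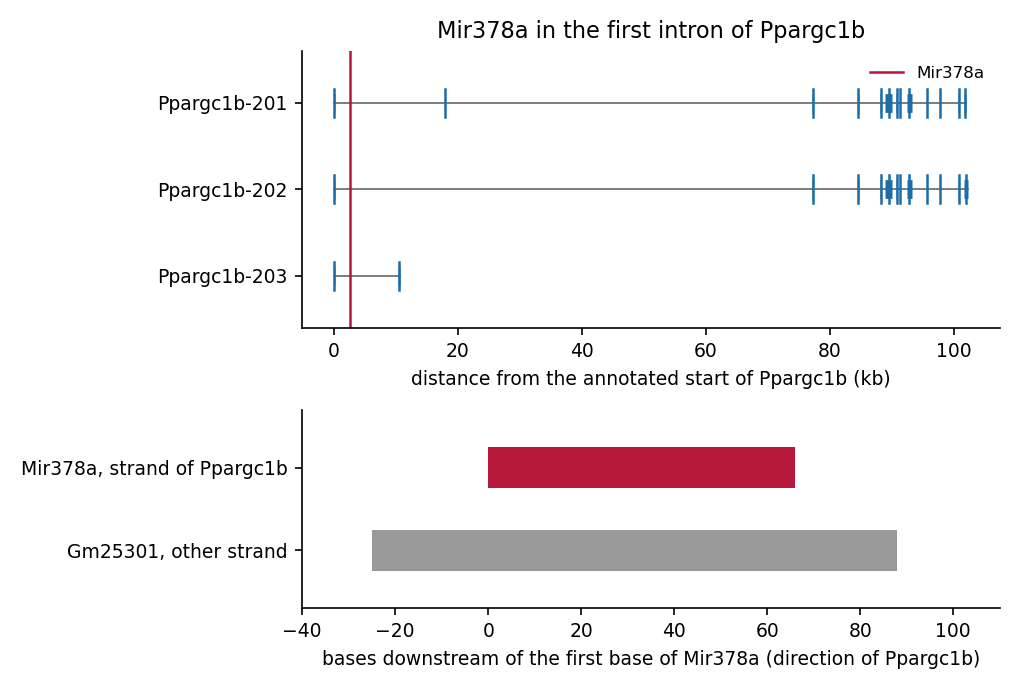
The upper panel maps the 3 annotated transcripts of Ppargc1b by distance from the annotated start in kilobases, with exons as ticks of fixed width and Mir378a as a vertical line in the first intron, 2531 bases from the start. The lower panel shows, to scale in bases, Mir378a (66 bases) inside the span of Gm25301 (113 bases) on the other strand.

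Mir378a ranked 2 in mean level among the miRNA genes as counted, with rank 3 in replicate 1 and rank 2 in replicate 2. It held nearly all counted reads of its family. Reads aligned to several places were counted on no gene, so genes with near-identical copies, such as Mir1a and Mir133a, can rank too low. Levels are sense reads per 1000000 sense reads on miRNA genes (CPM), and each read covers most of a mature miRNA, so no length enters. The libraries held 3510897 sense reads in replicate 1 and 3949733 in replicate 2. Mir378a had 271672 reads (77380 CPM) in replicate 1 and 372695 reads (94360 CPM) in replicate 2, a mean of 85870 ± 12007 CPM (SD, n = 2). Its share of sense reads was 7.74% in replicate 1, with a 95% Wilson interval of 7.71% to 7.77%, and 9.44% in replicate 2, with one of 9.41% to 9.46%. The intervals do not overlap, and they cover counting error alone, since reads carry no molecular identifiers. Against all reads in the file, aligned or not, Mir378a made up 3.33% in replicate 1 and 3.66% in replicate 2.

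Mir378a held 99.9% of the sense reads on the 4 Mir378 genes in both animals. Mir378c had 110 reads (31.3 CPM) in replicate 1 and 159 reads (40.3 CPM) in replicate 2, a mean of 35.8 ± 6.31 CPM. Mir378d had 40 reads (11.4 CPM) in replicate 1 and 65 reads (16.5 CPM) in replicate 2, a mean of 13.9 ± 3.58 CPM. Mir378b had 29 reads (8.26 CPM) in replicate 1 and 44 reads (11.1 CPM) in replicate 2, a mean of 9.70 ± 2.04 CPM. The order of these 3 genes was the same in both libraries. Mir378c lay above the other two in every library. Mir378d was above Mir378b in both libraries, and the gap between their means was smaller than the sum of their SDs. These SDs include any shift between libraries that both genes share, so they cannot show whether the 2 genes differ. All 4 Mir378 genes reached 2 CPM in both libraries, as did 332 of the 2202 genes, and in mean level Mir378c ranked 215, Mir378d 250 and Mir378b 272.

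**Figure D2:**
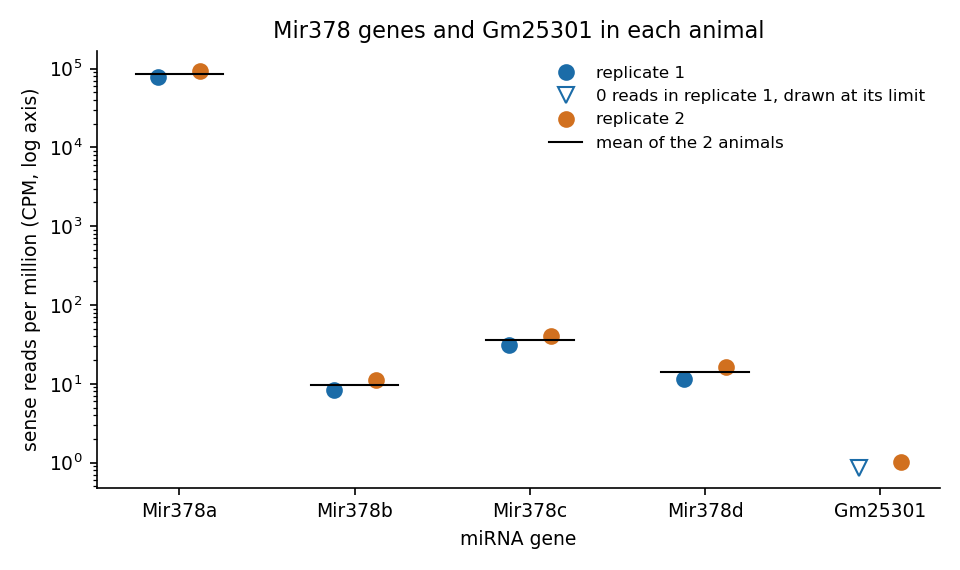
Sense reads per 1000000 (CPM) on a log axis for each Mir378 gene and Gm25301, with 1 point per animal (replicate 1 on the left, replicate 2 on the right) and a line at the mean where both libraries reached 2 CPM. Mir378a stands at 77380 and 94360 CPM, while Mir378b, Mir378c and Mir378d stay between 8.26 and 40.3 CPM; the open triangle marks 0 reads on Gm25301 in replicate 1, drawn at the limit of 0.854 CPM.

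Set against Mir378a, the low members had similar proportions in the 2 libraries. Per 1000000 Mir378a reads there were 405 Mir378c reads in replicate 1 (exact Poisson 95% interval 333 to 488) and 427 in replicate 2 (363 to 498). Mir378d had 147 per 1000000 in replicate 1 (105 to 200.5) and 174 in replicate 2 (135 to 222). Mir378b had 107 per 1000000 in replicate 1 (71.5 to 153) and 118 in replicate 2 (85.8 to 158). For each gene the intervals of the libraries overlap, so no difference in these proportions was detectable at this depth.

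Sequence shared with Mir378a limits how these counts can be read. The longest stretch that the Mir378a precursor shares with another Mir378 precursor was 20 bases for Mir378c, 19 for Mir378b and 15 for Mir378d. No window of 21 bases of any of the 5 genes occurred in an annotated precursor at another place. A read that lies wholly inside a shared stretch matches several places and was counted on no gene. Reads aligned to several places made up 42.6% of the file in replicate 1 and 46.4% in replicate 2. The share of them that belongs to Mir378 genes was not measured. The counts of Mir378b and Mir378c, which share the longest stretches with Mir378a, are therefore uncertain. Any Mir378a reads inside those stretches were lost as well. Mir378d shared no window of 17 bases with another precursor, and the rest of the genome was not searched. Whether altered Mir378a reads were counted on the low members was not tested.

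Mir378a stood close to Mir127 in level and below Mir206 in both libraries. Mir206, a miRNA of skeletal muscle, had 115948 CPM in replicate 1 and 95264 CPM in replicate 2, and was first in both. Per Mir206 read there were 0.667 Mir378a reads in replicate 1 and 0.991 in replicate 2, and the gap between their means was smaller than the sum of their SDs. Mir127, an imprinted miRNA of the Dlk1-Dio3 region, stood at 81763 CPM in replicate 1 and 83217 CPM in replicate 2, between the Mir378a values. The order of Mir378a against Mir127 changed between the libraries. Mir206 was above Mir378a in both, though not by more than the spread of the animals. Mir411, also of the Dlk1-Dio3 region, followed at 60037 CPM in replicate 1 and 62145 CPM in replicate 2, and Mirlet7i at 53634 and 53560 CPM. Every Mir378a value exceeded those of Mir411 and Mirlet7i.

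The likeness of a gene's profile to that of Mir378a was measured as the larger of its 2 per-library distances in log2 CPM, over 2 libraries. Mir127 was nearest with a distance of 0.18, then Mir206 with 0.58, Mir411 with 0.60, Mirlet7i with 0.82 and the endothelial miRNA Mir126a with 1.03. With 2 libraries this measure reflects mostly level.

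Of all detected miRNA genes inside an intron of a protein-coding host on their strand, Mir378a had the highest level as counted. There were 115 such genes, with a median of 81.3 CPM. Genes overlapping an exon of any annotated transcript of a host on their strand were left out. Mir126a, at 44175 ± 3025 CPM, was not among the 115. Mir378a exceeded the next of the 115, Mirlet7g in Wdr82 (37633 ± 385 CPM), by 2.28-fold. Mir23b in 2010111I01Rik (34918 ± 134 CPM) and Mir26b in Ctdsp1 (22658 ± 1966 CPM) followed. Mir378a held 29.0% of the counted reads of the 115 genes in replicate 1 and 32.6% in replicate 2. Genes with a copy elsewhere, such as Mir103-2 in Pank2 (5.70 CPM), lose reads that align to several places. The median and these shares are therefore uncertain.

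Over the 113 bases of Gm25301, which cover Mir378a, all reads came from the strand of Mir378a, apart from 4 reads. Gm25301 had 0 sense reads in replicate 1 and 4 in replicate 2 (1.01 CPM). The count of 0 allows up to 0.854 CPM, and Gm25301 reached 2 CPM in neither library. As a share of the sense reads of Mir378a and Gm25301 together, Gm25301 held 0 of 271672 in replicate 1, which allows up to 0.00110%. In replicate 2 it held 0.00107% (Wilson 95% interval 0.000417% to 0.00276%). Over the 2138 genes with no miRNA gene on the other strand, antisense reads were 0.00111% in replicate 1 (0.000792% to 0.00156%) and 0.00135% in replicate 2 (0.00100% to 0.00181%). With 0 and 4 reads, no excess on Gm25301 over antisense reads elsewhere was detectable. In replicate 2 the interval for Gm25301 reaches above that of antisense reads elsewhere, so a small excess cannot be told apart from none. The source of the 4 reads was not tested.

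Because Gm25301 covers Mir378a entirely, counting without strand removed Mir378a from the data. Its unstranded count was 0 in both libraries, while Mir378b, Mir378c and Mir378d kept the same counts with and without strand. Reads lost at this pair numbered 271672 in replicate 1, or 50.1% of the 542673 reads left ambiguous, and 372698 in replicate 2, or 54.3% of 686780. Among miRNA genes of at least 1000 CPM, 12 had a miRNA gene on the other strand, and 9 of them fell to 0 in both libraries without strand. The next largest loss was at Mir126a, with 27.2% of ambiguous reads in replicate 1 and 26.6% in replicate 2. The Mir299a pair held 4.19% in replicate 1 and 3.19% in replicate 2, and the Mir337 pair 3.67% in replicate 1 and 3.30% in replicate 2. The remaining pairs each held between 0.618% and 3.07%.

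**Figure D3:**
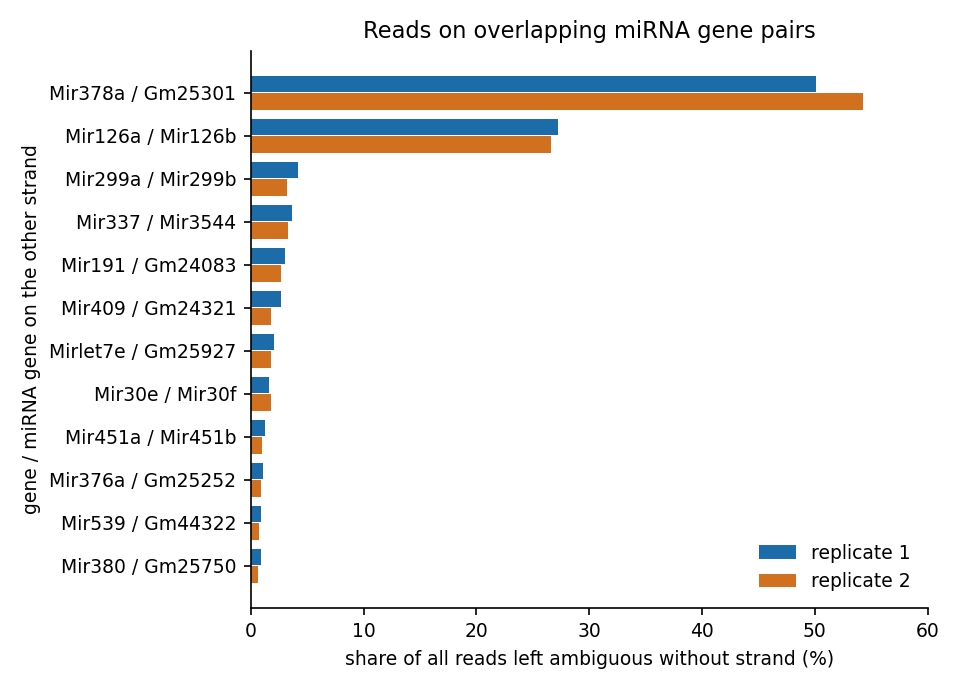
Share of all ambiguous reads, in percent, that fell on each of 12 overlapping miRNA gene pairs when strand is ignored, with replicate 1 as the upper and replicate 2 as the lower bar. The Mir378a and Gm25301 pair holds 50.1% and 54.3%, the Mir126a and Mir126b pair 27.2% and 26.6%, and every other pair at most 4.19%.

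The 2 libraries differed in Mir378a by less than 2-fold. Counts were compared by a two-sided exact binomial test conditional on library totals, with Benjamini-Hochberg adjustment over 395 genes of at least 10 reads. The test sets these libraries, not conditions, against each other. Mir378a was lower in replicate 1, with a log2 ratio of replicate 1 over replicate 2 of -0.29 (a 0.820-fold level, exact 95% interval 0.816 to 0.824), and its adjusted p from the exact test was too small to be held as a number other than 0. Mir378c had a log2 ratio of -0.36 (0.778-fold, 0.605 to 0.999, exact adjusted p = 0.0948). Mir378d had -0.52 (0.692-fold, 0.455 to 1.04, exact adjusted p = 0.156) and Mir378b -0.42 (0.741-fold, 0.447 to 1.21, exact adjusted p = 0.375). All 4 values were negative, against 46.1% of all tested genes, whose median was 0.03.

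Genes counted as different had at least a 2-fold difference together with an adjusted p of the exact test below 0.05. Of the 4 tested Mir378 genes 0 met both, against 28 of 395 genes, or 7.09%, with 13 genes (3.29%) lower and 15 genes (3.8%) higher in replicate 1. Without the fold limit Mir378a alone of the 4 passed, against 163 genes, or 41.3%, of which 67 genes (17%) were lower and 96 genes (24.3%) higher in replicate 1. The size of the Mir378a difference lay near the middle of all tested genes, of which 52.2% had a smaller one. Among the 20 most abundant genes, 1 gene (Mir143) had a larger one, and the median size was 0.12 on the log2 scale.

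**Figure D4:**
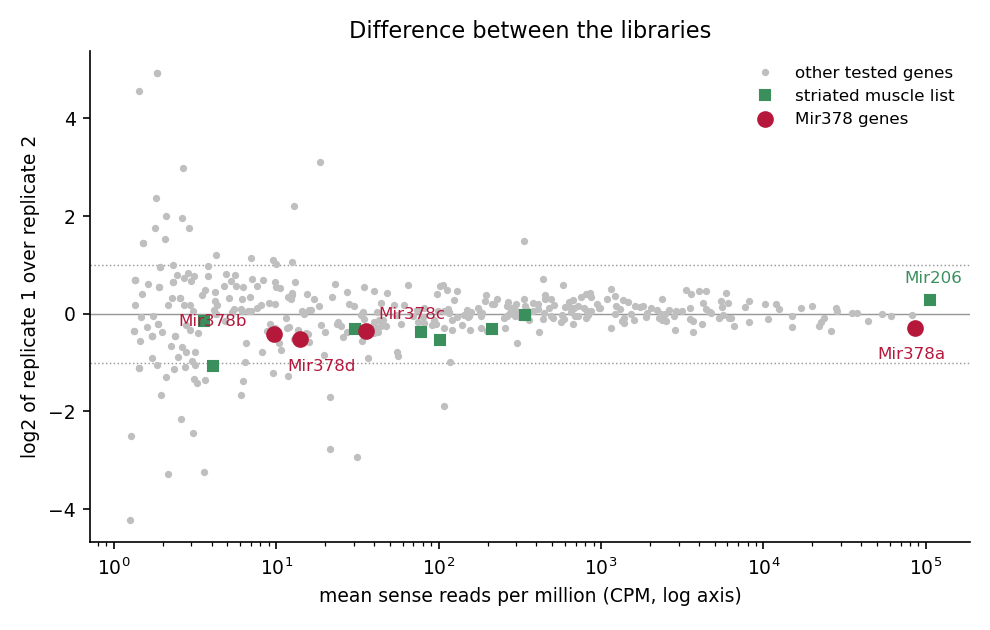
Log2 of replicate 1 over replicate 2 against mean level in CPM (log axis), 1 point per tested gene, with Mir378 genes and the striated muscle list in colour and dotted lines at 2-fold. The 4 Mir378 genes lie between -0.52 and -0.29, inside the dotted lines, and Mir206 lies at 0.28.

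Other striated muscle miRNAs and markers of other cell types were read beside this difference. Of 8 tested genes on the striated muscle list, 7 had a negative log2 ratio, against 46.1% of all tested genes. The median of the 8 was -0.32. Without a fold limit 3 of the 7 passed at an adjusted p under 0.05, where 17% of all tested genes passed in that direction. Those were Mir208b, from a slow myosin gene (-0.54, exact adjusted p = 1.72e-06), Mir486 (-0.31, exact adjusted p = 8.10e-05) and Mir1a-2 (-0.37, exact adjusted p = 0.00704). Mir206 went the other way, at 0.28. None of the 8 genes reached 2-fold with an adjusted p under 0.05.

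Summed markers of smooth muscle and stroma stood at 23481 CPM in replicate 1 and 29892 CPM in replicate 2, the endothelial marker Mir126a at 42036 and 46314 CPM, and neural markers at 295.7 and 546.9 CPM. Most of the neural sum was Mir338 and Mir137, and 4 of the 10 neural markers, Mir9-2 and all 3 Mir124a genes, were at 0 in both libraries. Epithelial markers went the other way, at 170.3 CPM in replicate 1 and 107.9 CPM in replicate 2, as did the liver miRNA Mir122 at 491 and 175.7 CPM. Erythroid markers stood at 2066 and 1865 CPM, and leukocyte markers at 743.4 CPM in replicate 1 and 654.0 CPM in replicate 2. Their part in the Mir378a difference was not tested.

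The muscle label was checked against these defining markers. Mir206 had the most counted reads of any gene. Mir499, encoded in a slow myosin gene, had 335.8 CPM in replicate 1 and 343.8 CPM in replicate 2. Mir486 stood at 212.6 ± 32.4 CPM, Mir1a-2 at 77.4 ± 14.0 CPM and Mir133b at 30.8 ± 4.83 CPM. The lowest were Mir133a-1 at 4.07 ± 2.13 CPM, Mir1a-1 at 3.61 ± 0.269 CPM and Mir133a-2 at 1.04 ± 0.671 CPM. Mir1a and Mir133a have near-identical copies, so their counts are uncertain. The lists used here were chosen with earlier results of these data known.

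Other miRNAs reported to act on mitochondria or on PGC-1 coactivators stood below Mir378a, as did every gene except Mir206 in mean level. Of 11 listed genes, 10 were annotated, 9 were detected, and 0 of 9 tested passed the 2-fold call, against 7.09% of all tested genes. Mir23a, reported to repress PGC-1α, was the highest at 28409 ± 804 CPM, with Mir378a at 3.02 times its level. Mir149 stood at 2220 ± 73.8 CPM, Mir181c, reported to act on a mitochondrial transcript in rat heart cells, at 672.5 ± 69.7 CPM, and Mir494 at 502.9 ± 21.7 CPM. The hypoxia miRNA Mir210 stood at 101.6 ± 28.4 CPM, and Mir761 had 0 reads in both libraries. Without a fold limit 3 of the 9 were lower in replicate 1 (Mir338, Mir181c and Mir1a-2) and 3 were higher (Mir23a, Mir149 and Mir210). Over all tested genes 17% were lower and 24.3% higher at the same threshold.

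MicroRNAs encoded in other metabolic or contractile genes had far fewer reads than Mir378a, which only Mir206 exceeded in mean level. Mir107, in the pantothenate kinase gene Pank1, stood at 58.5 ± 6.13 CPM, and Mir33, in the cholesterol regulator gene Srebf2, at 9.02 ± 0.940 CPM. Mir208b stood at 101.4 ± 26.6 CPM and Mir208a at 1.60 ± 0.246 CPM. Mir103-2 stood at 5.70 ± 1.61 CPM, and Mir103-1, which had 0 and 1 reads in replicates 1 and 2, is a copy of it. Reads that align to both were counted on neither, so these counts are uncertain. Of 6 tested genes on this list 4 were lower in replicate 1, against 46.1% of all tested genes. Mir208b alone passed at an adjusted p under 0.05, lower in replicate 1, where 17% of all tested genes passed in that direction.

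Mir378 is also known from brown fat. Of 8 listed genes 7 were tested, and 6 had a positive log2 ratio, while 46.1% of all tested genes had a negative one. The median of the 7 was 0.21, against 0.03 over all tested genes. The 4 that passed at an adjusted p under 0.05 without a fold limit were Mir196a-2 (967.7 ± 56.2 CPM), Mir455 (602.1 ± 42.7 CPM), Mir203 (112.7 ± 26.2 CPM) and Mir182 (40.1 ± 9.02 CPM), all higher in replicate 1, where 24.3% of all tested genes passed in that direction. Mir193b, which helps set brown fat identity, had 88.9 CPM in replicate 1 and 97.2 CPM in replicate 2 (exact adjusted p = 0.375). Mir203 and Mir182 are also epithelial or sensory miRNAs.

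Within 1 Mb of Mir378a, 7 other miRNA genes are annotated, and Mir143 and Mir145a had high counts. They lie about 250 kb away on the same strand and are known from smooth muscle and stroma. Mir143 had 22806 CPM in replicate 1 and 29190 CPM in replicate 2 (log2 ratio -0.36), and Mir145a had 675 CPM in replicate 1 and 701.6 CPM in replicate 2 (log2 ratio -0.06, exact adjusted p = 0.289). Per Mir143 read there were 3.39 Mir378a reads in replicate 1 and 3.23 in replicate 2. The others were Gm25301, Mir6983 with 4 reads in replicate 1 and 2 in replicate 2, and 3 more: Mir5107, Mir6982 and Mir7220, with 0 reads in both libraries.

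The precursors of the low members also differed from that of Mir378a in predicted folding energy per base. RNAfold gave Mir378a a minimum free energy of -38.5 kcal/mol, or -0.583 per base, a more stable fold per base than 94.3% of the 332 detected genes. The values were -0.338 per base for Mir378b, -0.318 for Mir378d and -0.273 for Mir378c, less stable than the median of detected genes (-0.432) and than that of all 2202 genes (-0.369). Mir378c, the highest of the 3 in reads, had the least stable fold, and 1.81% of detected genes were less stable than it. Gm25301, which spans the same bases on the other strand, had -0.581 per base with 0 and 4 reads in replicates 1 and 2. Total energies were -35 kcal/mol for Mir378d (110 bases), -31.1 for Mir378b (92 bases) and -27 for Mir378c (99 bases). Mir378a is annotated at 66 bases. Energy per base divides by the annotated length, and the part of length in these differences was not tested. These energies are computed from the annotated sequence and were not measured.

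**Figure D5:**
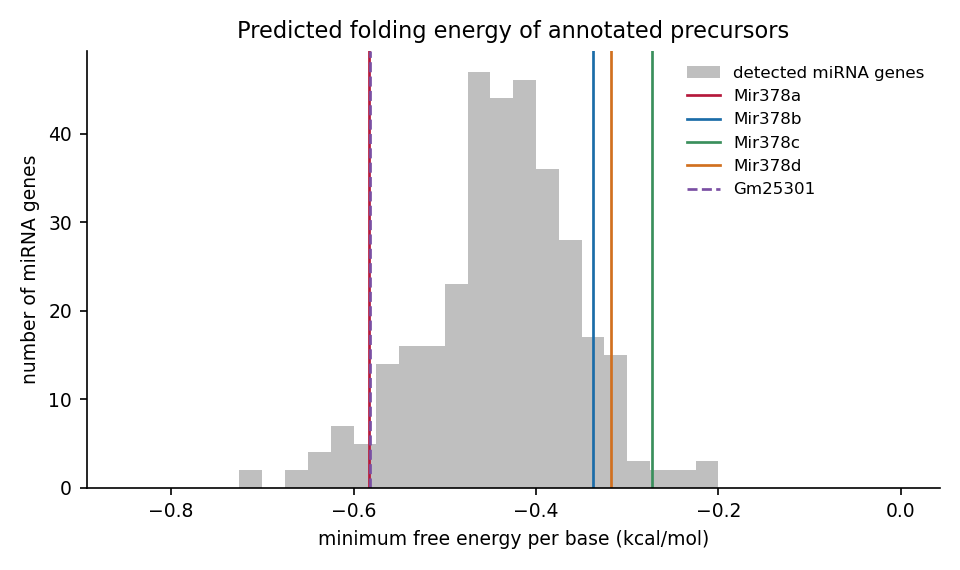
Histogram of predicted minimum free energy per base for the precursors of the 332 detected miRNA genes, with a vertical line for each Mir378 gene and for Gm25301 (dashed). Mir378a (-0.583) and Gm25301 (-0.581) lie at the stable end, and Mir378b (-0.338), Mir378d (-0.318) and Mir378c (-0.273) lie at the unstable end.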

How the data were processed

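For every miRNA gene the authors deposited raw, unnormalized counts in 3 columns (strand ignored, sense, antisense). The deposited descriptions name build mm10 and annotation GENCODE M21. The sources used here name no aligner or trimming. The sense column was identified by its total. All 2202 identifiers matched GENCODE M21, and 4 summary rows stayed out of totals and tests. The files held 8152102 reads in replicate 1 and 10176117 in replicate 2. Per the labels the replicates are separate animals, though both carry the same donor entry.

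Sense counts were scaled to CPM. With 1 group, edgeR has no contrast to fit. Libraries were compared with an exact binomial test (scipy 1.17.1), tested on simulated data, and 0.5 was added to each count for log2 ratios. Alternatives used factors from edgeR 4.0.16 and DESeq2 1.42.0 (R 4.3.3). Folding used RNAfold 2.7.2. Genes were named by rule: all members, up to 3 rank neighbours on each side and the 5 nearest profiles. Only Mir206 ranked above Mir378a in mean level. Also named were 4 lists, genes within 1 Mb and genes of at least 1000 CPM with a miRNA gene opposite. Marker lists of cell types and the lists were chosen with earlier results of these data known. Of the printed lists, 1 symbol (Mir696) had no match. The sequence of Mir378a is not reported here.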

Additional observations from a re-analysis of the deposited data

Results flagged for a closer look

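Reads on the strand of Mir378a that touch the wider span of Gm25301 but not Mir378a itself, from the antisense column of Gm25301, numbered 0 in replicate 1 and 7 in replicate 2. They were looked at because 7 is above the 3 reads that a count of 0 allows in a column outside the main measurement. Set against the sense reads of Mir378a in replicate 2 they were 0.00188%, lower than the same share at Mir191 (2 reads, 0.0109%) and at Mir380 (1 read, 0.0235%) in that library. The other pairs compared, at Mir409, Mirlet7e, Mir376a and Mir539, had 0 such reads in that library. With so few reads it cannot be told whether the 7 reads stand out, and the difference between the libraries was not tested.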

How the results depend on the processing

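The level of Mir378a kept within the spread of the animals with TMM factors (85851 CPM) and DESeq2 size factors (86043 CPM). It was 0 CPM without strand and 34975 CPM of all reads in the file, and the share of the 5 genes was 0.00724% and 3.50% under the same settings. The first follows from overlap with Gm25301 and the second from the larger total. Leaving out 1 replicate gave 77380 to 94360 CPM, a share of 7.74% to 9.44% and 4 detected members. At 10 CPM, and without strand, 3 members were detected. The log2 ratio of Mir378a stayed negative and under 2-fold with every scaling (-0.34 to -0.14). Scaling to all reads moved the median of tested genes to 0.18. Relative to the median Mir378a stood at -0.32. A scaling shifts every log2 ratio by the same amount, so this last value could not change. Without the fold limit Mir378c passed an adjusted p under 0.05 with DESeq2 factors (exact adjusted p = 0.0482, range over scalings 0.0482 to 0.353). No other member changed at that threshold. Mir378c stayed under 2-fold, and no member was called with any scaling. Genes called between libraries numbered 28, 6 with a minimum of 100 reads and 163 with no fold limit, where fewer or more genes can qualify, and 25 to 37 under the other settings. The ratio has no value without strand, since both counts are 0, and none from a single replicate. No paired analysis was possible because both samples belong to 1 group. With 2 animals the SDs are imprecise, and counts of Mir378b, Mir378d and Gm25301 are limited by depth.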

Other observations

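Outside the Mir378 genes, 1 annotated miRNA gene shared a window of 16 bases with Mir378a and with Mir378d. It was Gm27881 (ENSMUSG00000099183.1, chromosome 1, 13262198 to 13262279, plus strand), named after the window search, with 3 reads in replicate 1 (0.854 CPM) and 8 in replicate 2 (2.03 CPM). No window of 17 bases was shared with it.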
